A study of Saccharomyces cerevisiae with 7 samples.

Results

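The genes described here encode the kinetochore, the protein assembly that joins each centromere to spindle microtubules, and the spindle checkpoint, which delays chromosome separation until that joining is correct. They were taken by systematic name from the subunits of the Ndc80, Dam1, Mtw1, Ctf19 and CBF3 complexes and of the Aurora kinase complex. The centromere-binding proteins CSE4, MIF2 and CBF1, SPC105 and the checkpoint genes MAD1, MAD2, MAD3, BUB1, BUB3 and MPS1 were taken as well. Levels were not part of the rule, but earlier results of these data were known when the members were chosen. Of these 43 genes, 40 had values, out of 5666 genes with values in 6141 rows. SPC19 of the Dam1 complex, CTF3 of the Ctf19 complex and CBF2 (also called NDC10) of CBF3 are rows with no value and are not described further.

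Saccharomyces cerevisiae cells going through meiosis were sampled 1, 2, 3, 4, 5, 6 and 8 h after time 0, and the messenger RNA of each hour was compared with a mix of meiotic messenger RNA on 2-colour arrays. Each deposited value is the log2 of that ratio over the same ratio at 0 h, so that 0 is the 0 h level and 1 is a 2-fold higher level. The series design names 3 independent cultures, but each hour is 1 deposited column, and no value below has an error between cultures. No strain, genotype or medium is named in the sources used here, all 7 columns share the same 0 h denominator, and a value shows a share of the messenger RNA of the whole culture, in which many cells with a small change and few cells with a large change cannot be told apart.

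The kinetochore is built in layers. CBF3, Cbf1 and the centromeric histone Cse4 mark the centromere, Mif2 and the Ctf19 complex form the inner layer, the Mtw1 complex and Spc105 bridge to the outer layer, and the Ndc80 and Dam1 complexes hold the microtubule. In meiotic prophase of budding yeast the outer layer is known to be taken apart and then rebuilt before the divisions, and NDC80 is known to be transcribed during early meiosis also as a longer transcript that yields no Ndc80 protein. An array value for the NDC80 reading frame need not separate these transcripts, and the position of its probe is not given in the sources used here.

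Most kinetochore and checkpoint transcripts stood moderately above their 0 h level through the course, and a few stood far above it. The checkpoint kinase gene MPS1 reached a log2 ratio of 3.84 at 8 h (14.3-fold), the outer kinetochore gene NDC80 2.93 at 5 h (7.62-fold), and the Aurora kinase gene IPL1 2.84 at 4 h. At the low end, CTF19 of the inner kinetochore reached -1.02 at 8 h, the only value of any member that was 2-fold or more below 0 h. A gene is called induced below when it stood at least 2-fold above 0 h in 2 neighbouring samples, and repressed when it stood at least 2-fold below, which is a rule of size with no test. By this rule 15 of the 40 members were induced, against 21.8% of all genes, and 0 were repressed, against 16.4% of all genes.

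From 1 h to 8 h the median of the 40 members was 0.30, 0.545, 0.465, 0.415, 0.725, 0.73 and 0.47. The median of all genes stayed between -0.04 and 0.01. Over the same hours the number of members at least 2-fold above 0 h was 3, 10, 10, 9, 15, 14 and 12. At 1 h that was 7.5% of the members beside 7.11% of all genes, and at 5 h it was 37.5% beside 17.6%. Ratios of all genes also spread wider from 4 h (SD over genes 1.05) to 5 h (1.48), and with every column set to the same spread the highest median of the members was at 2 h (0.747) and not at 6 h (0.595).

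**Figure D1:**
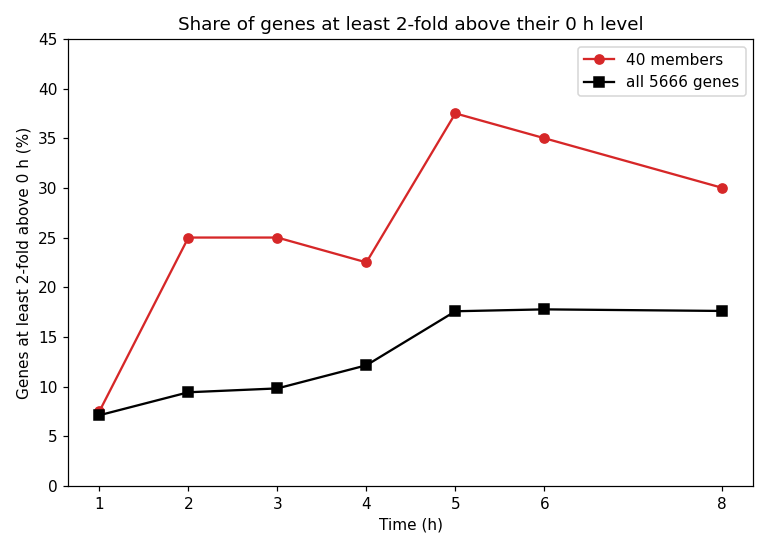
Percentage of genes at least 2-fold above their 0 h level (vertical axis, %) at each sampled hour (horizontal axis, h), for the 40 measured members (red circles) and for all 5666 genes (black squares). The members start at 7.5%, close to all genes, and stand at 25% against 9.43% at 2 h and 37.5% against 17.6% at 5 h.

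Change after 1 h was tested in limma by a moderated F test on a curve with linear and quadratic time terms, adjusted by Benjamini-Hochberg over all 5666 genes, and rose, fell and changed refer only to genes called by it. Of the 40 members 12 were called rising, against 23.3% of all genes, and 8 falling, against 25.2%, which is 30% and 20% of the members, so neither count stood far from the background. For IPL1 and SPC34 the called change was a rise followed by a decline, and their direction turned under other settings. That of NDC80, called rising, turned with all columns set to the same spread, where it was not called. This leaves 10 that rose and 7 that fell with the same direction in every setting tried. The test measures scatter around a smooth curve, and calls were sensitive to single hours. Without 2 h the counts were 4 rising, against 11.8% of all genes, and 2 falling, against 14.5%, and without 6 h again 4 and 2, against 12.1% and 12.7%. Without 3 h they were 8 and 5, against 17.6% and 17.9%, and without 8 h 11 and 4, against 26.3% and 20.3%, so the calls over all genes also fell without 2, 3 or 6 h. With each hour left out in turn 4 members (NDC80, CTF19, NKP2 and IPL1) stayed called, and the other 16 lost their call without at least 1 of them. With all columns set to the same spread 5 members were called rising, against 18.7% of all genes, and 6 falling, against 14.2%, and the 9 that lost their call were NDC80, SPC25, SPC34, DSN1, AME1, IML3, NKP2, CSE4 and IPL1.

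The hour of the highest value differed between members. It was 2, 3 or 4 h in 20 members (50%), against 35.8% of all genes. In 18 (45%) it was 5, 6 or 8 h, close to the 39.6% of all genes. In 2 (CTF19 and CEP3, 5%) it was 1 h, against 24.6%. From 1 h to 2 h 34 of the 40 went up by any amount, against 51.8% of all genes, with a median difference of 0.23. From 5 h to 8 h 30 of the 40 went down, against 50.6%, with a median difference of -0.18. Between 3 h and 5 h, an interval chosen from earlier results of these data, 4 members stepped up by 2-fold or more (MPS1, OKP1, MAD3 and NDC80), against 11.1% of all genes, and CTF19 alone stepped down by as much, against 5.38%. Values above 0 at all 7 hours were found in 22 members, against 24.5% of all genes. These counts carry no test.

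**Figure D2:**
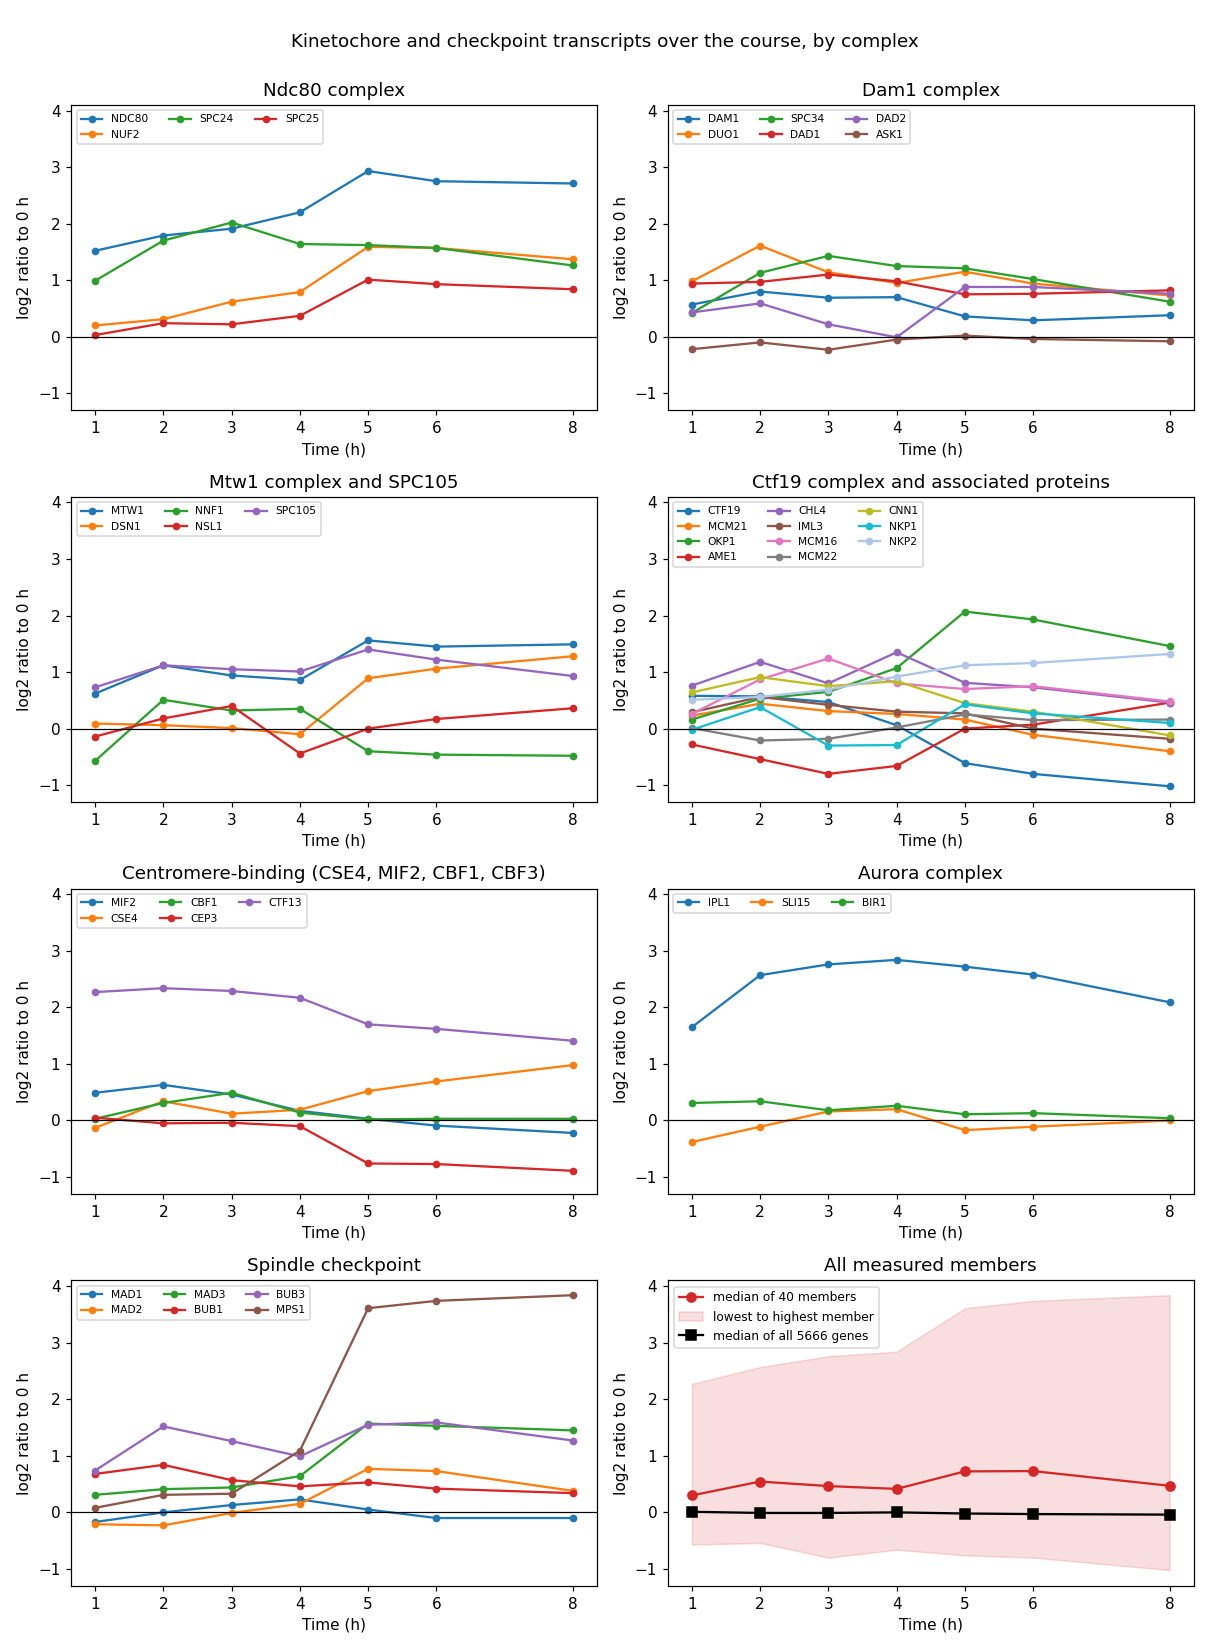
Log2 ratio to 0 h (vertical axes, the same range in every panel) at each sampled hour (horizontal axes, h), 1 line per gene, by complex; the last panel gives the median of the 40 members (red), their lowest and highest value (shaded) and the median of all genes (black). MPS1 ends at 3.84, NDC80 at 2.71 and CTF19 at -1.02, while most lines stay between -0.5 and 1.5.

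At the centromere itself, transcripts of the binding proteins went different ways. CSE4 (YKL049C), which encodes the histone H3 variant of centromeric nucleosomes, rose from -0.13 at 1 h through 0.34, 0.12, 0.19, 0.52 and 0.69 to 0.98 at 8 h (adjusted p = 0.0214). MIF2 (YKL089W), which encodes the CENP-C protein that reads that nucleosome, fell from 0.49 through 0.63, 0.46, 0.17, 0.03 and -0.09 to -0.22 (adjusted p = 0.0205). The lines of these partners, each set to its own 0 h level, crossed between 3 h and 4 h. At 4 h the values were 0.19 and 0.17. A crossing of such ratios does not show which transcript was more abundant. Neither gene reached a 2-fold difference from 0 h. The call of CSE4 was lost without 6 h and without 8 h (adjusted p up to 0.0908) and with columns set to the same spread (0.102). That of MIF2 was lost without 2 h and without 6 h (up to 0.0683). CBF1 (YJR060W), a DNA-binding protein of the centromere that is also a transcription factor of sulfur metabolism genes, stayed between 0.02 and 0.49 and was not called (adjusted p = 0.562).

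CBF3, which recognises the core centromere sequence, had 2 measured subunits among the members, far apart in level relative to 0 h. This count leaves out SKP1, which was listed with further kinetochore genes outside the members. SKP1 stood between -0.24 and 0.18 and was not called by the trend test (adjusted p = 0.14). CTF13 (YMR094W) stood at 2.27, 2.34, 2.29, 2.17, 1.70, 1.62 and 1.41 from 1 h to 8 h, above the 0 h level by at least 2-fold in every column. CEP3 (YMR168C) stood at 0.05, -0.05, -0.04, -0.10, -0.76, -0.77 and -0.89 over the same hours. Both fell (adjusted p = 0.0181 for CTF13 and 0.0256 for CEP3), and both were lower at 5 h than at 4 h. The call of CTF13 was lost with trended and robust moderation (0.0723) and without 2 h or 6 h (up to 0.0577), and that of CEP3 without 2, 3 or 6 h (up to 0.0732). Their difference was nearly fixed, between 2.22 and 2.46 at all 7 hours, so the distance between these subunits was in place at 1 h. Every ratio of a gene carries its own 0 h value, and an error in that value shifts all 7 of its ratios alike. With 1 h as the reference in place of 0 h, CTF13 did not meet the rule for induced genes.

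The Ctf19 complex with its associated proteins, forms the inner kinetochore layer. Of its 12 genes among the 43, 11 were measured. Of these, 3 rose (OKP1, AME1 and NKP2), 4 fell (CTF19, MCM21, IML3 and CNN1) and 4 were not called. Over all genes, too, 23.3% were called rising and 25.2% falling. OKP1 (YGR179C) stood at 0.16, 0.53, 0.65 and 1.07 in the samples up to 4 h, then at 2.07, 1.93 and 1.46 (adjusted p = 0.0193). CTF19 (YPL018W) stood at 0.58, 0.57, 0.47 and 0.06 over the earlier hours and at -0.61, -0.80 and -1.02 over the later ones (adjusted p = 0.00858). These genes encode subunits of the same unit, COMA, yet OKP1 minus CTF19 went from -0.42 at 1 h to 2.73 at 6 h. OKP1 is essential for growth and CTF19 is not.

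The remaining COMA subunits differed in the same direction, by smaller amounts. AME1 (YBR211C), the essential partner of OKP1, rose after a low at 3 h (adjusted p = 0.0381), with values of -0.28, -0.54, -0.80, -0.66, 0.00, 0.07 and 0.46. MCM21 (YDR318W), the partner of CTF19, fell by a small amount, with values of 0.23, 0.44, 0.31, 0.26, 0.16, -0.11 and -0.40 (adjusted p = 0.0187). The essential pair was thus higher at 5 h than at 3 h, by 1.42 and 0.80, and the non-essential pair lower, by -1.08 and -0.15. The median of this difference over all genes was -0.09, close to the value of MCM21. The difference between pairs was not tested. The call of AME1 was lost without 2, 3, 4, 6 or 8 h (adjusted p up to 0.0904), and that of MCM21 without 2, 6 or 8 h (up to 0.103). OKP1 lost its call without 2 h and without 6 h (up to 0.0596).

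Among the other members of this layer, NKP2 (YLR315W) rose steadily from 0.51 through 0.56, 0.69, 0.92, 1.12 and 1.16 to 1.32 (adjusted p = 0.0122). Its scatter around its curve was only 0.0717. With all columns set to the same spread NKP2 was not called (adjusted p = 0.233) and did not meet the rule for induced genes. CNN1 (YFR046C), the CENP-T protein that can bind the Ndc80 complex directly, fell from 0.64, 0.91, 0.75 and 0.84 at 1 h to 4 h to 0.45, 0.30 and -0.12 (adjusted p = 0.0162; 0.0795 without 8 h). IML3 (YBR107C), which with CHL4 (YDR254W) supports cohesion around centromeres, fell, with 0.56 at 2 h and -0.18 at 8 h, at adjusted p = 0.0432, and with an hour left out it was called only without 1 h. CHL4 was higher, at 1.18 at 2 h and 1.35 at 4 h, and was not called (adjusted p = 0.183). The other uncalled members, MCM16 (YPR046W), MCM22 (YJR135C) and NKP1 (YDR383C), stood between -0.30 and 1.24. NKP2 overlaps the gene TAD3 in the annotation and CTF19 overlaps IRC15, and whether the probes separate strands is not given in the sources used here. TAD3 went from 1.13 at 4 h to 0.60 at 8 h. It was above NKP2 by a similar amount from 1 h (0.70 against 0.51) to 4 h and below it from 5 h (0.84 against 1.12). IRC15 had no value.

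The Mtw1 complex, the bridge between inner and outer layers, had 1 gene that rose, DSN1, and 3 that were not called. MTW1 (YAL034W-A) stood at 0.62, 1.12, 0.94, 0.86, 1.56, 1.45 and 1.49 and was induced, though its trend was not called (adjusted p = 0.079). DSN1 (YIR010W), whose protein binds both the inner kinetochore and the monopolin proteins of the first meiotic division, stayed between -0.10 and 0.09 up to 4 h and rose to 0.89, 1.06 and 1.28 (adjusted p = 0.0309; 0.0801 at most with an hour left out). NNF1 (YJR112W) was the lowest at 5 h, with values of -0.57, 0.51, 0.32, 0.35, -0.40, -0.46 and -0.48, and was not called (adjusted p = 0.329). NSL1 (YPL233W) stood between -0.44 and 0.40. At 5 h the distance between MTW1 and NNF1 was 1.96, against 0.51 at 4 h. SPC105 (YGL093W), the scaffold that recruits checkpoint proteins to the kinetochore, stood at 0.73, 1.12, 1.05, 1.01, 1.40, 1.22 and 0.93, which met the rule for induced genes without a called trend (adjusted p = 0.151).

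All 4 genes of the Ndc80 complex, the main microtubule receptor, stood at least 2-fold above 0 h at 5 h. NDC80 (YIL144W) stood at 1.52, 1.79, 1.91, 2.20, 2.93, 2.75 and 2.71 (adjusted p = 0.0146). NUF2 (YOL069W), which forms the microtubule-binding head together with NDC80, stood at 0.20, 0.31, 0.62, 0.79, 1.59, 1.57 and 1.37 (adjusted p = 0.0162). SPC25 (YER018C), of the end that faces the centromere, stood at 0.03, 0.24, 0.22, 0.37, 1.01, 0.93 and 0.84 (adjusted p = 0.035, a call lost without 1, 2, 3 or 6 h). These 3 rose in the deposited values, with similar steps from 4 h to 5 h (0.73, 0.80 and 0.64), though with columns set to the same spread the direction of NDC80 turned, and the distance of NDC80 above NUF2 stayed between 1.18 and 1.48 at all 7 hours.

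Relative to NUF2 and SPC25, NDC80 was already higher at 1 h. Its percentile among all genes was 96.9 at 1 h and 95.0 at 8 h, while that of NUF2 was 64.2 and 86.9 and that of SPC25 51.6 and 79.7. With columns set to the same spread NDC80 was fitted lower at 8 h than at 1 h and was not called (adjusted p = 0.279), whereas NUF2 stayed called under each of the 5 other settings tried (0.0161 at most) but not without 2 h or without 6 h (0.0539 at most). SPC24 (YMR117C), the partner of SPC25, took a course of its own. It stood at 0.99, 1.70, 2.02, 1.64, 1.62, 1.57 and 1.26, highest at 3 h, and was not called (adjusted p = 0.129). The value at 5 h minus that at 3 h was -0.40 for SPC24 and 0.79 to 1.02 for its 3 partner genes.

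The Dam1 complex, which encircles or tracks the microtubule tip, had medians of 0.885 at 2 h, 0.895 at 3 h and 0.675 at 8 h. SPC34 (YKR037C) stood at 0.42, 1.13, 1.43, 1.25, 1.21, 1.02 and 0.62, a rise and decline that the test called (adjusted p = 0.0372) with no settled direction, and that was called in 2 of the 5 other settings tried (up to 0.937). DUO1 (YGL061C) stood at 0.98, 1.61, 1.14, 0.95, 1.15, 0.94 and 0.73 (adjusted p = 0.283). These were the 2 induced members of 6 measured. DAM1 (YGR113W), at 0.29 to 0.80, and DAD1 (YDR016C), at 0.75 to 1.10, stood above 0 throughout, and DAD2 (YKR083C) stood between -0.01 and 0.88. ASK1 (YKL052C) was the flattest member of the whole set, within -0.23 and 0.02. At 5 h the highest member of this complex, SPC34 at 1.21, was 1.19 above the lowest, ASK1.

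**Figure D3:**
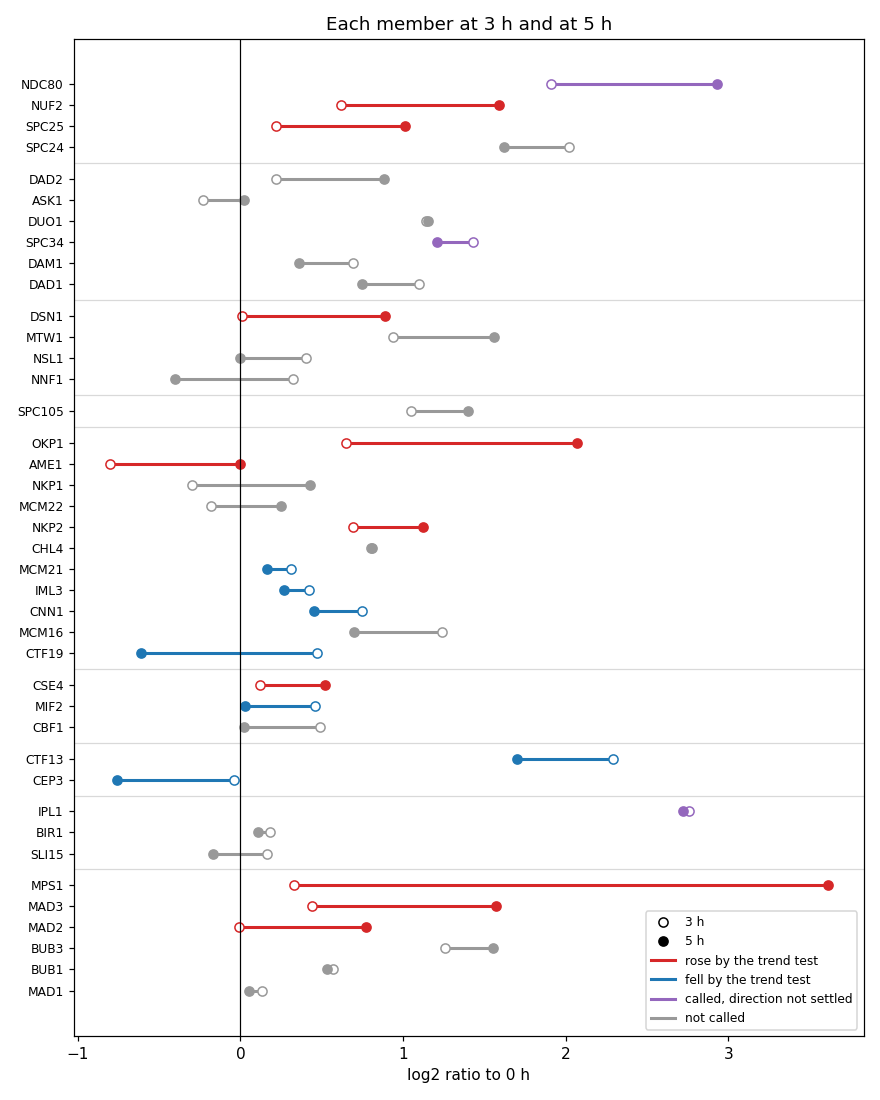
Log2 ratio to 0 h (horizontal axis) of each measured member at 3 h (open circle) and 5 h (filled circle), with genes in rows ordered by complex, from Ndc80 at the top to the checkpoint at the bottom; colour gives the call of the trend test, with NDC80, IPL1 and SPC34 in purple, as called with a direction that turned under another setting. MPS1 has the longest bar, a difference of 3.28, OKP1 follows with 1.42, and CTF19 has the longest bar to the left, -1.08.

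In the Aurora complex, which corrects faulty microtubule attachments, the kinase gene stood far above its partners relative to 0 h. IPL1 (YPL209C) stood at 1.65, 2.57, 2.76, 2.84, 2.72, 2.58 and 2.09, above 0 h by at least 2-fold in all 7 columns. The called change (adjusted p = 0.0195) was a rise up to 4 h followed by a decline. It was called in 1 of the 5 other settings tried (adjusted p up to 0.987) and with each hour left out (up to 0.0476). SLI15 (YBR156C), which activates and localises the kinase, stood at -0.38, -0.11, 0.16, 0.20, -0.17, -0.11 and 0.00 (adjusted p = 0.462). BIR1 (YJR089W), the survivin-like subunit, stayed between 0.04 and 0.34 (adjusted p = 0.25). Relative to 0 h, IPL1 was higher than SLI15 by 2.03 to 2.89 and than BIR1 by 1.34 to 2.61 at all 7 hours. Their values did not overlap. The distance to SLI15 was 2.03 at 1 h and 2.09 at 8 h. An error in the 0 h value of a gene would shift all 7 of its ratios alike. RKM1, a methyltransferase gene that lies next to IPL1 and is transcribed away from it, was also high, from 1.33 at 1 h to 2.15 at 5 h.

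Spindle checkpoint genes other than BUB3 (YOR026W) and BUB1 (YGR188C) stood between -0.23 and 0.44 up to 3 h and then separated. MPS1 (YDL028C), the kinase that starts checkpoint signalling and also serves spindle pole body duplication, stood at 0.08, 0.31 and 0.33 up to 3 h, at 1.09 at 4 h, and at 3.61, 3.74 and 3.84 from 5 h on (adjusted p = 0.0164; 0.0537 without 2 h). Its percentile among all genes was 55.5 at 1 h and 97.1 at 8 h. MAD3 (YJL013C), which encodes part of the complex that inhibits Cdc20, rose from 0.31, 0.41, 0.44 and 0.64 to 1.57, 1.53 and 1.45 (adjusted p = 0.0297). MAD2 (YJL030W), which encodes a protein that binds Cdc20, rose from -0.21, -0.23, -0.01 and 0.15 to 0.77, 0.73 and 0.38 (adjusted p = 0.0472), but was called in only 2 of the 7 courses with an hour left out.

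The other 3 checkpoint genes were not called. BUB3, whose protein docks the Bub kinases at Spc105, was induced at 0.74, 1.52, 1.26, 0.99, 1.55, 1.59 and 1.27 (adjusted p = 0.337). BUB1, the kinase gene related in sequence to MAD3, stood at 0.68, 0.84, 0.57, 0.46, 0.53, 0.42 and 0.34 (adjusted p = 0.143). MAD1 (YGL086W), the anchor of Mad2, stood within -0.17 and 0.23 (adjusted p = 0.307). MAD3 was below BUB1 by 0.43 at 2 h and above it by 1.04 or more from 5 h on. MPS1 minus MAD1 was 0.20 at 3 h and 3.94 at 8 h, the widest distance inside any of the complexes. The MAD3 call was lost without 2 h and without 6 h, with adjusted p up to 0.0837.

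**Figure D4:**
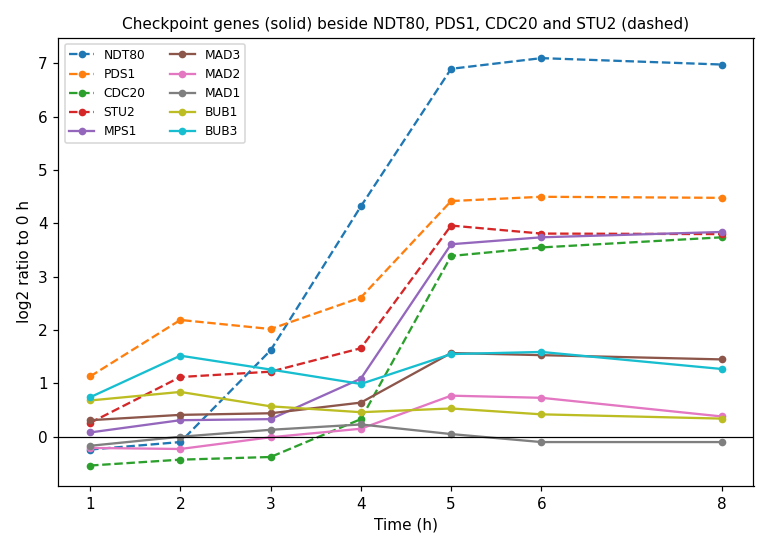
Log2 ratio to 0 h (vertical axis) at each sampled hour (horizontal axis, h) for the 6 checkpoint genes (solid lines) beside NDT80, PDS1, CDC20 and STU2 (dashed lines), 1 line per gene. MPS1 joins CDC20 and STU2 from 5 h on, at 3.61 against 3.39 and 3.96, while MAD1 and BUB1 stay below 1.

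The targets of the checkpoint were set beside it. CDC20, the activator of the anaphase-promoting complex that the checkpoint holds back, stood at -0.54, -0.43, -0.38, 0.33, 3.39, 3.55 and 3.74 and rose (adjusted p = 0.0182). PDS1, the securin whose destruction Cdc20 starts, stood at 1.13, 2.19, 2.02, 2.61, 4.42, 4.50 and 4.48 and rose (adjusted p = 0.0106). NDT80, which activates the genes of mid-sporulation, went from 1.62 at 3 h to 6.90 at 5 h. Each relative to its own 0 h level, MPS1 stood above CDC20 by 0.10 to 0.76 at all 7 hours. From 1 h to 8 h CDC20 went up by more, 4.28 against 3.76 for MPS1. The value at 5 h minus that at 3 h was 3.28 for MPS1, 3.77 for CDC20 and 2.40 for PDS1, whereas it was 1.13 for MAD3 and 0.29 for BUB3.

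Of 17 further kinetochore genes listed outside the 43, those without values were DAD3, DAD4 and HSK3 of the Dam1 complex, NBL1 of the Aurora complex and WIP1. The other 12 had values. STU2, the microtubule polymerase of kinetochores and spindle, was the only one that rose, with values of 0.26, 1.12, 1.22, 1.66, 3.96, 3.81 and 3.80 (adjusted p = 0.0126). SGT1 (to -1 at 8 h), a co-chaperone of CBF3 assembly, PSH1 (to -0.83), a ubiquitin ligase for Cse4, and BIK1 (to -0.61), a microtubule-tip protein, fell (adjusted p = 0.0106, 0.0182 and 0.0107). STU2, SLK19 (1.74 at 2 h) and STU1 (1.18 at 4 h) were induced, against 21.8% of all genes, and 0 were repressed, against 16.4%. Over all genes 23.3% were called rising and 25.2% falling. No check with an hour left out is given for the calls of these further genes. BIK1 was the lowest at 5 h, at -0.77. The median of the 12 stayed between -0.15 and 0.155, below that of the 40 members at every hour. KRE28, the partner of SPC105, stood at -0.72 to -0.24 and SCM3, the chaperone of Cse4, at -0.64 to -0.04.

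Between complexes, the Ndc80 complex had the highest median at every hour among the 7 groups with 3 or more measured members, from 0.595 at 1 h to 1.605 at 5 h and 1.315 at 8 h. The Dam1 complex had 0.50 at 1 h, its highest median at 3 h (0.895) and 0.675 at 8 h. The checkpoint median was 0.195 at 1 h and 0.385 at 3 h, and stood at 1.16 at 5 h. Medians of the Mtw1 complex, -0.025 at 1 h and 0.82 at 8 h, were lowest at the start and highest at the end. The Ctf19 complex was highest at 2 h (0.56) and lowest at 8 h (0.16), and the Aurora complex stood at 0.34 and 0.04 at the same hours.

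These medians hide wide ranges inside the complexes, and differences between complexes were not tested. At 5 h the Ndc80 genes spanned 1.01 to 2.93, the Dam1 genes 0.02 to 1.21, the Mtw1 genes -0.40 to 1.56, the Ctf19 genes -0.61 to 2.07 and the checkpoint genes 0.05 to 3.61. The range of each of those 4 complexes overlapped that of the Ndc80 complex. No complex other than Ndc80, of the 7 groups, had all its measured members at least 2-fold above 0 h at any hour. From 1 h to 5 h the SD over all genes went from 0.894 to 1.48, a ratio of 1.66. The SD over the measured members went from 0.570 to 0.946, also a ratio of 1.66. A distance between highest and lowest rests on the extreme genes alone, so its ratio is not the same measure as a ratio of SDs. In the checkpoint at 5 h the highest gene was MPS1, at 3.61, and the next was MAD3, at 1.57. Over the same hours the distance between the highest and the lowest member went from 0.95 to 3.56 in the checkpoint (a ratio of 3.75), from 1.04 to 2.68 in the Ctf19 complex (2.58) and from 1.19 to 1.96 in the Mtw1 complex (1.65). It went from 2.03 to 2.89 in the Aurora complex (1.42), from 1.49 to 1.92 in the Ndc80 complex (1.29), from 1.20 to 1.19 in the Dam1 complex and from 0.62 to 0.50 among CSE4, MIF2 and CBF1. These distances were not tested.

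Some differences between members were already present at 1 h. NDC80, CTF13 and IPL1 were the 3 members at least 2-fold above 0 h at 1 h, or 7.5% against 7.11% of all genes. They stayed there in all 7 columns, and the share of all genes that did so was not counted. With levels taken relative to 1 h in place of 0 h, 6 members were induced (NDC80, NUF2, OKP1, IPL1, MAD3 and MPS1), or 15% against 19.6% of all genes, and 1 was repressed (CTF19), against 10.7%. NUF2, OKP1, NKP2, MAD3 and MPS1 were below a 2-fold difference at 1, 2 and 3 h and above it at 5 and 6 h. How many of all genes did the same was not counted. The share of all genes at least 2-fold above 0 h was 9.81% at 3 h and 17.6% at 5 h.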

How the data were processed

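Levels of messenger RNA were measured on 2-colour arrays at 7 time points, Cy5 for the time point and Cy3 for the meiotic mix, per the labels. The deposited log2 values are the ratios to the mix divided by the ratio at 0 h, as the authors describe in the series design; no background correction, normalization or way of combining cultures is named in the sources used here, and precision is limited by the number of arrays. All 5666 rows with values entered the tests, unchanged. Symbols came from RefSeq, assembly R64, in which all 43 names matched, and its gene order was used only for neighbours.

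The trend test used limma 3.58.1 in R 4.3.3 (lmFit, eBayes, 4 residual degrees of freedom, threshold 0.05 after Benjamini-Hochberg adjustment). A run on simulated data used independent scatter and linear changes only. It had no step between hours and no shared 0 h denominator, so it cannot show how often calls on these data are false. The p-values of the trend test leave out the spread between cultures. Direction compares the ends of the fitted curve, 8 h against 1 h. Any of the 43 members may be named; full values are given for those induced, called or extreme in their complex at 5 h. Members, lists and tests were chosen with earlier results of these data known.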

Additional observations from a re-analysis of the deposited data

How the results depend on the processing

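Medians of all members moved by less than 0.213, the median scatter of a member around its curve, under each alternative run. The number of members called rising, 12, was 5 with columns centred and scaled to the same spread, and 4 to 11 with each hour left out in turn; the number called falling, 8, was 2 to 10. The direction of SPC34 turned with time points in order in place of hours (adjusted p = 0.012) and without 2 h or 8 h (0.0306 to 0.0719 over all hours left out), that of IPL1 without 1 h (0.0159 to 0.0476) and with scaled columns (0.125), and that of NDC80 with scaled columns (0.279). The cause was not tested. Induced members, 15, numbered 25 at 1.5-fold (34.4% of all genes), 6 at 3-fold (11.9%) and 6 relative to 1 h (19.6%), and repressed members, 0, numbered 3 at 1.5-fold (31.6%), 1 with 1 time point sufficing (24.1%) and 1 relative to 1 h (10.7%). Members stepping up from 3 h to 5 h, 4, numbered 2 from 4 h to 5 h (9.35% of all genes), 12 at 1.5-fold (18.9%) and 2 with scaled columns (9.95%), and those stepping down, 1, numbered 0 (1.38%), 4 (18.3%) and 5 (6.09%). Scaled columns gave the Ndc80 complex medians of 1.37 and 1.65 at 2 and 3 h and of 1.28, 1.25 and 1.05 at 5, 6 and 8 h, the Dam1 complex 1.20 and 1.17 at 2 and 3 h, and the checkpoint 0.932 and 0.908 at 5 and 6 h. Means in place of medians gave 1.545 for Ndc80, 0.263 for the centromere proteins and 1.197 for the checkpoint at 8 h, and for the Aurora complex, where IPL1 stands apart, 0.527, 0.933, 1.033, 1.10, 0.887, 0.867 and 0.71 from 1 h to 8 h. With 1.5-fold or 3-fold thresholds the changed counts follow from the construction of the rule. No paired analysis was possible because the columns carry no replicate numbers. Signal over background is unknown, so no limit of detection was set.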

Other observations

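Of the 43 genes, 21 have a protein-coding neighbour transcribed away from them, and 20 of these neighbours had values. The share of all genes with such a neighbour was not counted. NKP2 lies beside the septin gene CDC3, which stood at 0.67 at 1 h and 4.76 at 8 h, while NKP2 ended at 1.32. CHL4 lies beside MET32, a transcription factor gene of sulfur metabolism, which stood at 1.74 at 1 h and 3.70 at 8 h, while CHL4 ended at 0.46. SPC105 and PAN2, of a poly(A)-shortening enzyme, were alike up to 4 h (0.55, 0.98, 1.01 and 0.88 for PAN2) and apart at 5 h, at 1.40 and 0.77. AME1 and NGR1 were both lowest at 3 h, at -0.80 and 0.07, and highest at 8 h, at 0.46 and 0.82. MAD2 and BET4 were both highest at 5 h, at 0.77 and 0.68. DUO1 and YBP2, another kinetochore-associated gene, differed at 2 h (1.61 and 0.62) and were close at 5 h (1.15 and 1.01). These neighbours were looked at after the values of the members were seen, and their resemblance was not tested.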
